A study of Mus musculus with 36 samples.

Results

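The livers were examined for 10 genes that encode the chains of fibrillar collagens and of collagens that associate with fibrils. These were Col1a1 and Col1a2 (type I), Col3a1 (type III), Col5a1, Col5a2 and Col5a3 (type V), Col6a1, Col6a2 and Col6a3 (type VI) and Col14a1 (type XIV). They were found by their symbols among the 24421 genes counted, all 10 were present, and all 10 passed the filter on low counts in every comparison.

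Collagen chains fold in threes into a triple helix inside the cell, are secreted as procollagen, and lose their end peptides before they assemble into fibrils. Type I and type III make up most of the scar in a fibrotic liver, type V sits inside type I fibrils and helps to start them, type VI forms beaded filaments beside the fibrils, and type XIV binds to the fibril surface. In the liver, stellate cells that turn into myofibroblasts are the main source of these chains, with portal fibroblasts as another source.

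The mice were male C57BL/6J animals, 7 weeks old at purchase, and all of them ate the CDAHFD, a choline-deficient, amino acid-defined, high-fat diet that induces steatohepatitis with fibrosis, for 12 weeks before treatment. In the HFD experiment, mice then ate a high-fat diet for 2 weeks with weekly subcutaneous injections of Fc at 4.3 mg/kg (10 mice) or of Fc(mML1)B3 at 5 mg/kg (10 mice). In the standard diet experiment, mice ate standard chow for 10 days with injections at days 1, 4 and 7 of Fc at 4.3 mg/kg (9 mice) or of Fc(mML1)B3 at 5 mg/kg (7 mice). Fc is the crystallizable fragment of human IgG1, a portion of its constant region, and Fc(mML1)B3 is the same protein with a peptide in its B3 loop that binds and activates mouse Met, the receptor of hepatocyte growth factor. The CDAHFD injury is thus common to every group, no library of mice without it or from before treatment was analysed here, and the diets differ together with experiment, dosing and duration, which cannot be told apart.

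Each library is 1 mouse and is named by its number in the sample title. Total counts were 14949035 to 28466853 per library, so that even the lowest collagen count, that of Col5a2 in an Fc(mML1)B3 mouse under the HFD, rested on 129 reads. The hepatocyte gene Alb was at 56912 CPM or more in every library (CPM, counts scaled to a common library size with TMM factors), and Lrat, the retinol-esterifying enzyme of stellate cells, at 12.2 CPM or more. One library stood apart. In Fc(mML1)B3 mouse 5 under the HFD, the smooth muscle genes Myh11 and Cnn1 were at 24.8 and 3.56 CPM against at most 6.47 and 0.745 CPM in the other 35 libraries, Acta2 was at 36.4 CPM against at most 10.9 CPM, and Alb was at its lowest. Values and counts without this mouse are given beside the results that it changed most. Fc mouse 6 of the standard diet experiment was the highest of its group in 8 of the 10 collagen genes and in the summed stellate cell genes. In whole liver, fewer collagen-making cells and less collagen RNA per cell cannot be told apart.

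Per length of exon, Col3a1 was the most abundant of the 10 transcripts in every group and Col5a1 the least abundant. On the scale of CPM per kb of exon, Col3a1 was at 33.7 ± 10.1 (SD, n = 10) in Fc mice and 29.3 ± 8.52 (SD, n = 10) in Fc(mML1)B3 mice under the HFD, and at 27.4 ± 4.72 (SD, n = 9) and 23.1 ± 2.58 (SD, n = 7) under the standard diet. Col5a1 was at 2.15 ± 0.555, 1.71 ± 0.345, 1.72 ± 0.309 and 1.39 ± 0.206 CPM per kb in the same order of groups. In Fc mice under the HFD, the order from high to low was Col3a1, Col1a1, Col1a2, Col6a1, Col14a1, Col6a2, Col6a3, Col5a3, Col5a2 and Col5a1, and each gene's mean ± SD range overlapped that of the next. Within single mice the steps were clearer. Col3a1 lay above Col1a1 in 10 of 10 of these mice, Col1a2 above Col6a1 in 10 of 10, and Col5a2 above Col5a1 in 10 of 10, whereas Col1a1 exceeded Col1a2 in only 6 and Col6a1 exceeded Col14a1 in only 5.

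The order was different in the standard diet experiment. In its Fc mice, Col14a1 (14.5 ± 1.53 CPM per kb, SD, n = 9) came second, above Col1a2 (12.0 ± 2.29) in 8 of 9 mice, and Col5a3 (8.58 ± 1.08) lay above Col6a1 (6.99 ± 1.69) in 7 of 9. Col1a1 and Col1a2, at 24.9 ± 9.61 and 24.1 ± 7.40 CPM per kb in Fc mice under the HFD, were at 10.97 ± 2.79 and 12.0 ± 2.29 here. Col1a1, Col1a2 and Col3a1 together held 59.7 ± 2.61% (SD, n = 10) of the summed level of the 10 genes in Fc mice under the HFD and 53.6 ± 2.36% (SD, n = 9) in Fc mice under the standard diet. The plot of the genes by mouse gives the values behind these means as CPM.

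**Figure D1:**
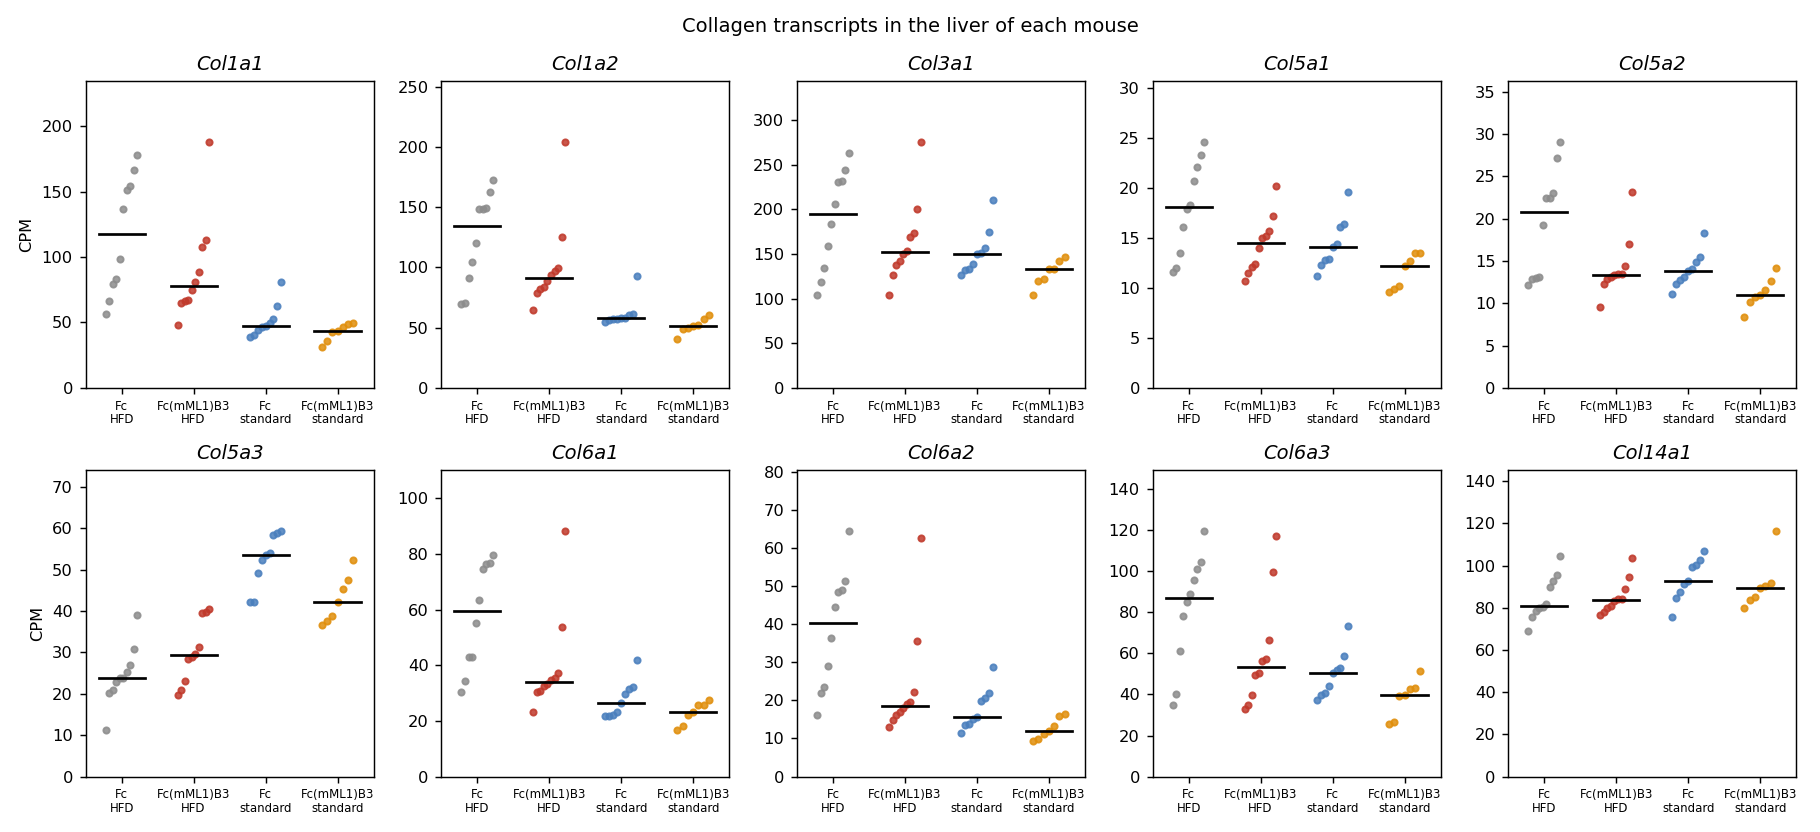
Level of each collagen gene in CPM (vertical axes, starting at 0, a separate scale per gene) in each mouse of the 4 groups on the horizontal axis, with 1 point per mouse and a bar at the group median. Under the HFD, Fc(mML1)B3 mouse 5 is the top point of its group in 8 of the 10 genes, and Col5a3 is the gene that was called higher under the standard diet, while the medians of Col14a1 were also higher there and its points overlapped.

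The first question was whether Fc(mML1)B3 changed these transcripts under the HFD. None of the 10 genes passed the test there (edgeR's quasi-likelihood F-test, called at an adjusted p below 0.05 after Benjamini-Hochberg correction across all genes), against 6.68% of the 13299 genes tested that were called lower and 8.14% called higher. At an unadjusted p below 0.05, 4 of the 10 were lower, against 14.5% of all genes. DESeq2 also called 0 of the 10, against 7.83% of all genes lower, and limma-voom with quality weights called 3 lower, Col5a1, Col6a1 and Col6a2 (adjusted p = 0.048, 0.014 and 0.010), against 10.5%. The fit of all 36 libraries also called 3 lower, against 11.3%. Of the 10 estimates 8 were below 0, and the median log2 fold change of the 10 was -0.34, against -0.0099 over all genes. At the thresholds of the study for this experiment (an adjusted p below 0.1 and a change of over 2-fold), 0.677% of all genes were lower and 0 of the 10. With upper-quartile normalization, 1075 genes were called lower and 865 higher in place of 889 and 1083.

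Col1a1, the α1 chain of type I, lies on chromosome 11 of mm10 from 94936270 to 94951856. Its level was 56.4, 118 and 178 CPM in the lowest, median and highest Fc mouse and 47.9, 78.1 and 188 CPM in the lowest, median and highest Fc(mML1)B3 mouse. Of the Fc(mML1)B3 mice, 9 of 10 lay below the median of the Fc mice and mouse 5 lay above all of them, and the groups overlapped almost entirely. The log2 fold change was -0.37 (SE 0.23, edgeR adjusted p = 0.29). Col1a2, the α2 chain (chromosome 6, 4505697 to 4541543), ran from 69.4 over a median of 134.02 to 173 CPM with Fc and from 64.9 over 91.2 to 204 CPM with Fc(mML1)B3. It had the same arrangement, with 9 of 10 mice below the Fc median and mouse 5 on top, and a log2 fold change of -0.27 (SE 0.19, edgeR adjusted p = 0.35). Col3a1 (chromosome 1, 45311538 to 45349706) ran from 104 over 195 to 263 CPM with Fc and from 104 over 152 to 275 CPM with Fc(mML1)B3, with 8 of 10 mice below the Fc median and a log2 fold change of -0.19 (SE 0.17, edgeR adjusted p = 0.49).

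None of the type V chains passed the test, and their estimates were not of 1 sign. Col5a1 (chromosome 2, 27886425 to 28039510), the chain common to most type V molecules, ran from 11.6 over 18.1 to 24.6 CPM with Fc and from 10.7 over 14.5 to 20.2 CPM with Fc(mML1)B3. Col5a2 (chromosome 1, 45374331 to 45503282) ran from 12.1 over 20.8 to 28.997 CPM with Fc and from 9.57 over 13.3 to 23.2 CPM with Fc(mML1)B3. In both, 9 of 10 Fc(mML1)B3 mice lay below the Fc median, and the log2 fold changes were -0.31 (SE 0.14, edgeR adjusted p = 0.13) and -0.43 (SE 0.17, edgeR adjusted p = 0.085). Col5a3 (chromosome 9, 20770050 to 20815034), the third type V chain, had an estimate above 0. It ran from 11.4 over 23.8 to 39.0 CPM with Fc and from 19.7 over 29.3 to 40.5 CPM with Fc(mML1)B3, with 7 of 10 mice above the Fc median and a log2 fold change of 0.31 (SE 0.16, edgeR adjusted p = 0.20).

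Col6a2 and Col6a1 of type VI, whose 3 chains assemble together, had the largest estimates of the 10 genes. Col6a2 (chromosome 10, 76595756 to 76623404) ran from 16.2 over 40.4 to 64.4 CPM with Fc and from 12.98 over 18.5 to 62.6 CPM with Fc(mML1)B3. Mouse 5 held the 62.6 CPM, and the next Fc(mML1)B3 mouse was at 35.7 CPM. The log2 fold change was -0.68 (SE 0.27, edgeR adjusted p = 0.093). Col6a1, which lies on the same strand of chromosome 10 (76708792 to 76726044), 85387 bases away, ran from 30.2 over 59.4 to 79.5 CPM with Fc and from 23.2 over 33.997 to 88.2 CPM with Fc(mML1)B3, a log2 fold change of -0.52 (SE 0.21, edgeR adjusted p = 0.10). Col6a3 (chromosome 1, 90766860 to 90843971) ran from 34.8 over 86.9 to 119.6 CPM with Fc and from 32.8 over 53.3 to 117 CPM with Fc(mML1)B3. It had a log2 fold change of -0.41 (SE 0.23, edgeR adjusted p = 0.24), and 8 of 10 mice below the Fc median. Col14a1 (chromosome 15, 55307750 to 55520803) was the least variable gene, at 69.0 to 104 CPM with Fc and 76.8 to 104 CPM with Fc(mML1)B3, with a log2 fold change of 0.026 (SE 0.071, edgeR adjusted p = 0.84) that turned to -0.012 with upper-quartile normalization.

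The library that stood apart decided part of this. Without Fc(mML1)B3 mouse 5, the log2 fold changes of Col1a1, Col1a2 and Col3a1 were -0.55, -0.43 and -0.30 (edgeR adjusted p = 0.057, 0.053 and 0.17), and 3 genes fell, Col5a2 by 0.53, Col6a1 by 0.72 and Col6a2 by 0.96 on the log2 scale (edgeR adjusted p = 0.020, 0.0058 and 0.0041), and all genes called lower went from 889 to 1446, or 10.8%. Without Fc mouse 3, 1 gene fell, Col5a2 (edgeR adjusted p = 0.049), against 6.34% of all genes. In mouse 5, the summed level of the 5 smooth muscle genes was 51.9 CPM against a group median of 13.1, that of the 6 mesothelial genes 79.3 against 17.4, and that of the 10 portal fibroblast genes 236 against 74.5 CPM. It was also the highest of its group in the summed cholangiocyte genes (842 against 310.1 CPM) and macrophage genes (1110 against 633 CPM). The same held for activated stellate cell genes (1147 against 481 CPM) and stellate cell genes (1274 against 872 CPM). These sums are not all separate readings. Spp1 is in the cholangiocyte and activated lists, with a mean of 481 CPM in Fc mice under the HFD (list medians 572 and 750 CPM). Krt19 is in the cholangiocyte and mesothelial lists. In the Fc(mML1)B3 group, Dcn (mean 520 CPM) and Gpnmb (376 CPM) held much of the stellate cell and macrophage sums. The part of these cell types in the collagen levels of mouse 5 was not tested. The numbers in the file headers run in 1 series for the Fc libraries and in 2 others for the Fc(mML1)B3 libraries, so that the injected protein and the series of numbers cannot be told apart. With Fc(mML1)B3 mice 1 to 4 alone, 1 gene was lower, Col6a2 (log2 fold change -1.02, edgeR adjusted p = 0.049), against 2.11% of all genes. With mice 5 to 10 alone 0 were, against 5.26%. The latter set holds mouse 5, and no fit of it without that mouse was made. The value of Col14a1 was -0.014 with mice 1 to 4 alone.

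The same question was asked under the standard diet. Here all 10 estimates were below 0 and 3 genes passed the test, Col5a2, Col5a3 and Col6a2, against 7.55% of 13570 genes called lower and 8.56% called higher. The median log2 fold change of the 10 was -0.29, against -0.011 over all genes. At an unadjusted p below 0.05, 9 of the 10 were lower, against 14.8% of all genes. The study states more than 1 pair of thresholds for this experiment. At an adjusted p below 0.05 and a change of over 1.5-fold, 1.31% of all genes were lower and 0 of the 10, and none of the 10 estimates reached 2-fold.

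Col6a2 had the largest of these estimates. It was at 11.6, 15.5 and 28.8 CPM in the lowest, median and highest Fc mouse and at 9.31, 11.9 and 16.4 CPM with Fc(mML1)B3, and 3 of 7 Fc(mML1)B3 mice lay below all Fc mice. It fell by 0.52 on the log2 scale (SE 0.17, edgeR adjusted p = 0.040). Col5a2 fell by 0.32 (SE 0.10, edgeR adjusted p = 0.039), from 11.1, 13.8 and 18.3 CPM to 8.40, 10.9 and 14.2 CPM, with 4 of 7 mice below all Fc mice. Col5a3, whose estimate under the HFD was above 0, fell by 0.29 (SE 0.086, edgeR adjusted p = 0.028). It was at 42.2, 53.4 and 59.3 CPM in the lowest, median and highest Fc mouse and at 36.6, 42.1 and 52.4 CPM with Fc(mML1)B3, and each of the 7 values with Fc(mML1)B3 was below the Fc median.

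The other 7 genes did not pass the test. The type I chains had log2 fold changes of -0.28 for Col1a1 (SE 0.13, edgeR adjusted p = 0.16) and -0.27 for Col1a2 (SE 0.099, edgeR adjusted p = 0.072). Col1a1 was at 39.0, 47.4 and 81.0 CPM in the lowest, median and highest Fc mouse and at 30.9, 43.6 and 49.3 CPM with Fc(mML1)B3. For Col1a2 the values were 54.3, 58.0 and 92.6 CPM with Fc and 40.4, 51.1 and 60.7 CPM with Fc(mML1)B3. The groups overlapped in both genes, although 5 of 7 Fc(mML1)B3 mice lay below every Fc mouse in Col1a2. Col3a1 was at 127, 150 and 211 CPM with Fc and 105, 132.7 and 146 CPM with Fc(mML1)B3, with all 7 mice below the Fc median and a log2 fold change of -0.25 (SE 0.092, edgeR adjusted p = 0.071). Col5a1 had -0.31 (SE 0.11, edgeR adjusted p = 0.057), also with all 7 mice below the Fc median. Of the remaining type VI chains, Col6a1 was at 21.7, 26.5 and 41.9 CPM with Fc and 16.7, 23.1 and 27.4 CPM with Fc(mML1)B3, and Col6a3 at 37.3, 50.7 and 73.5 CPM and 25.5, 39.5 and 51.3 CPM. In both genes 6 of 7 mice lay below the Fc median while the groups overlapped, with log2 fold changes of -0.29 (SE 0.13) and -0.39 (SE 0.15) and edgeR adjusted p of 0.15 and 0.077. Col14a1, at 75.8 to 107 CPM with Fc and 80.0 to 116 CPM with Fc(mML1)B3, had -0.043 (SE 0.075, edgeR adjusted p = 0.74).

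The 3 calls lay close to the threshold. Without 1 library at a time, the adjusted p of Col5a2 ranged from 0.016 to 0.080, that of Col5a3 from 0.0089 to 0.066 and that of Col6a2 from 0.020 to 0.086, and 0 to 5 of the 10 genes were called, with 5.99% to 7.90% of all genes lower. None was called without Fc(mML1)B3 mouse 4 or mouse 6, and 5 were called without Fc mouse 5, Fc mouse 7 or Fc(mML1)B3 mouse 2. The call of Col5a2 was lost without Fc mouse 1, 2, 6 or 9 or Fc(mML1)B3 mouse 1, 3, 4, 5 or 6, that of Col6a2 without Fc mouse 1, 6, 8 or 9 or Fc(mML1)B3 mouse 1, 3, 4, 6 or 7, and that of Col5a3 without Fc mouse 3 or Fc(mML1)B3 mouse 4, 5, 6 or 7. DESeq2 called 6 genes lower (8.70% of all genes lower), limma-voom 4 (8.40%), and a fit with all 36 libraries 0 (2.31%). Within the 4 Fc and 7 Fc(mML1)B3 libraries whose header numbers form 1 run, only Col6a2 was called (log2 fold change -0.73, edgeR adjusted p = 0.024), with 3.09% of all genes lower.

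An interaction term in the fit of all 36 libraries then compared the response to Fc(mML1)B3 in the 2 experiments. None of the 10 genes passed it, against 4.40% of 14105 genes with a lower and 4.66% with a higher effect under the standard diet. The median difference of the 10 was 0.025 on the log2 scale, against 0.018 over all genes, and 1 of the 10 was lower at an unadjusted p below 0.05, against 9.71% of all genes. This was Col5a3, whose effect was lower by 0.58 on the log2 scale under the standard diet (SE 0.21, edgeR adjusted p = 0.074). It passed with DESeq2 (adjusted p = 0.041), with limma-voom (adjusted p = 0.027) and without Fc(mML1)B3 mouse 5 of the HFD experiment (edgeR adjusted p = 0.036). For the other 9 genes the difference lay between -0.050 and 0.24, with SE of 0.11 to 0.36. Whether differences of this size could be detected at this spread was not tested.

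**Figure D2:**
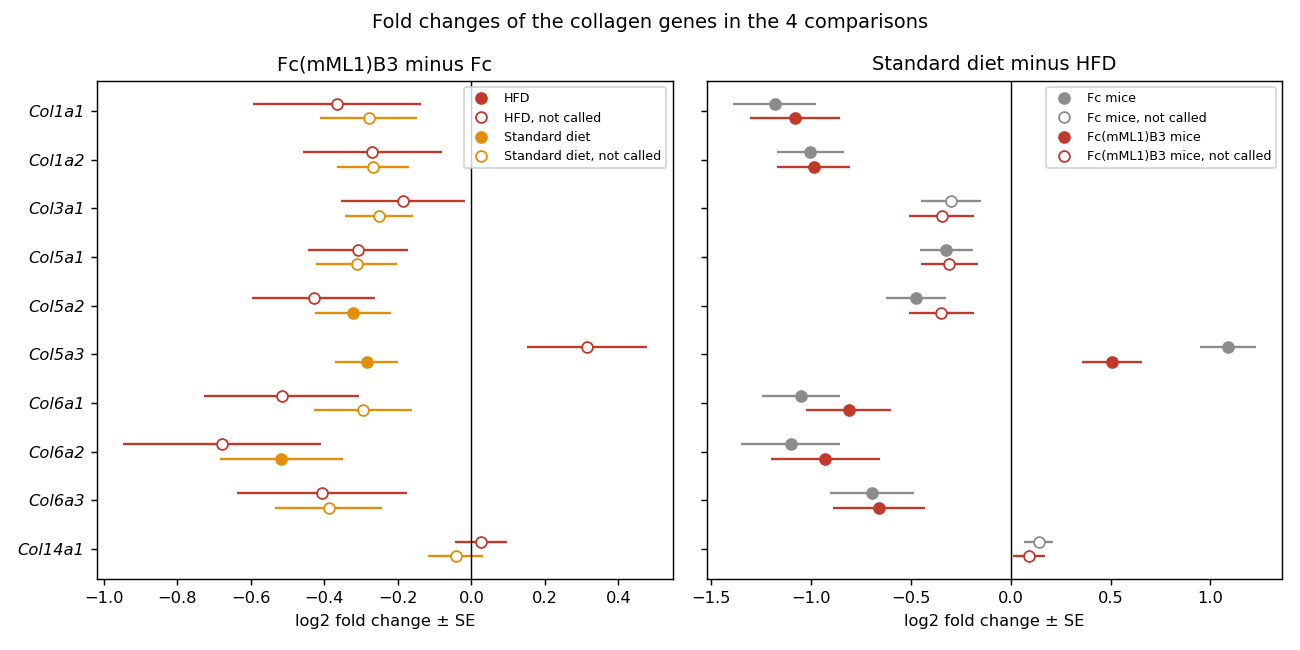
Log2 fold change of each collagen gene (horizontal axes, points with bars of 1 SE) for Fc(mML1)B3 against Fc in each experiment (left) and for the standard diet against the HFD in each treatment (right), with filled points for genes that passed the test. On the left, 3 filled points are those of the standard diet, and on the right Col5a3 stands alone above 0 among the filled points, at 1.09 and 0.51.

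Larger differences separated the 2 experiments. Among Fc mice, 7 of the 10 genes were lower under the standard diet than under the HFD and 1 was higher, against 24.6% of 14105 genes called lower and 23.3% called higher. Among Fc(mML1)B3 mice, 5 were lower and 1 higher, against 17.9% and 20.7%. In Fc mice, upper-quartile normalization called 8 of the 10 lower, against 4795 of 14105 genes. No filter on low counts called 6, against 16.8% of all genes, and the fit of only the 2 groups also 6, against 25.2%. Upper-quartile normalization called 8 of the 10 lower in Fc(mML1)B3 mice, against 26.9% of all genes, the fit of only the 2 groups also 8, against 19.1%, and the fit without mouse 5 of the HFD experiment 4, against 16.9%. The median log2 fold change of the 10 was -0.58 in Fc mice and -0.50 in Fc(mML1)B3 mice, against -0.048 and -0.022 over all genes. With upper-quartile normalization, the median of all genes moved to -0.13 and -0.11. The split of all calls then went from 3471 lower and 3288 higher to 4795 and 2523 in Fc mice, and from 2520 and 2914 to 3799 and 2208 in Fc(mML1)B3 mice. The 2 diet comparisons share no mice. Each of the 4 groups also enters a comparison of Fc(mML1)B3 with Fc, so the values of the diet and treatment comparisons stand side by side and are not independent.

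Type I and type VI chains were lower in both treatments. Col1a1 fell by 1.18 on the log2 scale in Fc mice (SE 0.21, edgeR adjusted p = 1.64e-05), which was 2.27-fold, and 7 of 9 mice under the standard diet lay below every Fc mouse under the HFD. It fell by 1.08 in Fc(mML1)B3 mice (SE 0.23, edgeR adjusted p = 0.000237). Col1a2 fell by 1.00 (SE 0.17, edgeR adjusted p = 8.22e-06) and 0.99 (SE 0.18, edgeR adjusted p = 5.04e-05). In Fc(mML1)B3 mice its groups did not overlap, with a highest value of 60.7 CPM under the standard diet and a lowest of 64.9 CPM under the HFD. The share of all genes whose groups did not overlap was not counted. Col6a1 fell by 1.05 and 0.81, and Col6a2 by 1.10 and 0.93, in Fc and Fc(mML1)B3 mice (SE 0.20 to 0.27, edgeR adjusted p of 3.8e-05 and 0.0026 for Col6a1 and of 0.00039 and 0.0064 for Col6a2). Col6a3 fell by 0.69 in Fc mice (SE 0.21, edgeR adjusted p = 0.0071) and by 0.66 in Fc(mML1)B3 mice (SE 0.23, edgeR adjusted p = 0.021), and the latter call was lost without Fc(mML1)B3 mouse 5 of the HFD experiment (-0.51, edgeR adjusted p = 0.059) and with limma-voom (-0.43, adjusted p = 0.065).

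Type III, type V and type XIV are given next, and whether they differed from types I and VI was not tested. Col3a1 had log2 fold changes of -0.30 in Fc mice (SE 0.15, edgeR adjusted p = 0.10) and -0.34 in Fc(mML1)B3 mice (SE 0.16, edgeR adjusted p = 0.089), and neither passed the test. Col5a1 and Col5a2 fell in Fc mice by 0.32 and 0.47 (SE 0.13 and 0.15, edgeR adjusted p = 0.040 and 0.0092). In Fc(mML1)B3 mice their values were -0.31 and -0.35 (edgeR adjusted p = 0.084 and 0.087). When only the libraries of these 2 groups were fitted, Col3a1, Col5a1 and Col5a2 passed in Fc(mML1)B3 mice (edgeR adjusted p = 0.046, 0.037 and 0.038) and Col5a1 did not pass in Fc mice (0.055). Col5a3 rose by 1.09 in Fc mice (SE 0.14, edgeR adjusted p = 9.05e-08), which was 2.12-fold. For this gene all 9 Fc mice under the standard diet lay above all 10 under the HFD, and how many of all genes separated in this way was not counted. In Fc(mML1)B3 mice Col5a3 rose by 0.51 (SE 0.15, edgeR adjusted p = 0.0069), with 4 of 7 mice above every mouse under the HFD. Col14a1 had 0.14 (SE 0.074, edgeR adjusted p = 0.11) and 0.090 (SE 0.079, edgeR adjusted p = 0.38).

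The range between Fc mice was also narrower under the standard diet in all 10 genes, a difference that was not tested. In these mice, the highest value was 3.15 times the lowest for Col1a1 under the HFD and 2.08 times under the standard diet, 3.98 and 2.50 times for Col6a2, and 3.43 and 1.41 times for Col5a3. For Col14a1 the ratios were 1.51 and 1.41. Among Fc(mML1)B3 mice the range was narrower under the standard diet in 9 of the 10 genes and wider in Col14a1, at 1.35 times under the HFD and 1.46 times under the standard diet.

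To set the promoter of Col5a3, the gene called higher under the standard diet, beside those of Col1a2, called lower, and of Col3a1, with estimates below 0 that were not called, the 250 bases before their RefSeq starts are shown, from GRCm38.p6 (the same assembly as mm10), each read on the strand of its gene. The RefSeq start lies before the first base of the gene model used for counting for Col1a2 and Col5a3 and at that base for Col3a1. The Col1a2 window is chr6:4505368-4505617 (plus strand), that of Col3a1 chr1:45311288-45311537 (plus strand) and that of Col5a3 chr9:20815068-20815317 (minus strand). Capitals mark matches, on either strand, to CCAAT (the CCAAT box), GGGCGG (the GC box), TATAAA (the TATA box), TGACTCA (the AP-1 site) and GGAATG (the TEAD site).
Col1a2: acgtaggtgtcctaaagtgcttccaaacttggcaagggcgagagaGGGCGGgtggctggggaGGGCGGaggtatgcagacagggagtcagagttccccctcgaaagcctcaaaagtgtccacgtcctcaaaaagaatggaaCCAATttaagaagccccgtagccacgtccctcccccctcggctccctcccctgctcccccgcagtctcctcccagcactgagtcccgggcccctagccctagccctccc
Col3a1: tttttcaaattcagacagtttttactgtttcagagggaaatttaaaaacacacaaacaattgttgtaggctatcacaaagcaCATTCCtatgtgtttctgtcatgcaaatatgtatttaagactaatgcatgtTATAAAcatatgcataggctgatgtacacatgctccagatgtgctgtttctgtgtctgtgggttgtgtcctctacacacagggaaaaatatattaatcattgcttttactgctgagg
Col5a3: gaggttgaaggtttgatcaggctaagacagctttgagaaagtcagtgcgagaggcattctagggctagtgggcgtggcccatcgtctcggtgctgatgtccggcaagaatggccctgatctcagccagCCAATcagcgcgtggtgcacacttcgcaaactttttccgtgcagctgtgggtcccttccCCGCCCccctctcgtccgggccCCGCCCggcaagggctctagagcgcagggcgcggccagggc

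Col1a2 and Col5a3 had the same pair of motifs, a CCAAT box that starts 109 and 122 bases before the start and 2 GC boxes each, and their windows held 62.0% and 62.8% G and C. The window of Col3a1 held 35.2% G and C and neither motif, but had a TATA box and a TEAD site that start 117 and 168 bases before the start. Among the 32851 windows of the same length in the RefSeq table, 33.8% held a CCAAT box, 32.7% a GC box, 12.4% a TATA box, 4.46% an AP-1 site and 12.6% a TEAD site. Of the 10 genes 7 had a window in the table. The other 4 held no CCAAT box. Col5a1 and Col6a2 held GC boxes, Col6a2 also a TEAD site, Col6a1 an AP-1 site alone, and Col6a3 no match.

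The ratio of chains within a mouse does not depend on the library's scale. Type I collagen contains a pair of α1 chains for each α2 chain, and at the RNA level the ratio of Col1a1 to Col1a2 per kb of exon stayed near 1 in every group. It ran from 0.873 over a median of 1.02 to 1.20 in Fc mice and from 0.808 over 0.920 to 1.19 in Fc(mML1)B3 mice under the HFD, and from 0.761 over 0.935 to 1.12 and from 0.798 over 0.911 to 0.991 under the standard diet. Fc(mML1)B3 mice differed from Fc mice by -0.090 in mean log2 ratio under the HFD (SE 0.070, 2-sided permutation test with 100000 resamples, p = 0.21) and by -0.0022 under the standard diet (SE 0.071, 2-sided exact permutation test, p = 0.98). Adjusted over the 4 tests of ratios, these p-values were 0.42 and 0.98.

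The ratio of Col3a1 to Col1a1 differed between the experiments in every mouse. It ran from 1.15 over 1.43 to 1.78 in Fc mice and from 1.24 over 1.62 to 1.89 in Fc(mML1)B3 mice under the HFD. Under the standard diet it ran from 2.20 over 2.52 to 2.89 in Fc mice and from 2.22 over 2.61 to 2.85 in Fc(mML1)B3 mice. All 16 mice of the standard diet experiment thus lay above all 20 of the HFD experiment, a comparison that was made after the values were seen and was not tested. Within the HFD experiment, Fc(mML1)B3 mice were higher by 0.19 in mean log2 ratio (SE 0.095, 2-sided permutation test, p = 0.062, adjusted p = 0.25). Without Fc(mML1)B3 mouse 2 or 5 or Fc mouse 5, 6 or 10, the unadjusted permutation p was 0.0394, 0.0221, 0.0235, 0.0425 and 0.0489. Within the standard diet experiment the difference was 0.019 (SE 0.075, 2-sided exact permutation test, p = 0.80, adjusted p = 0.98).

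**Figure D3:**
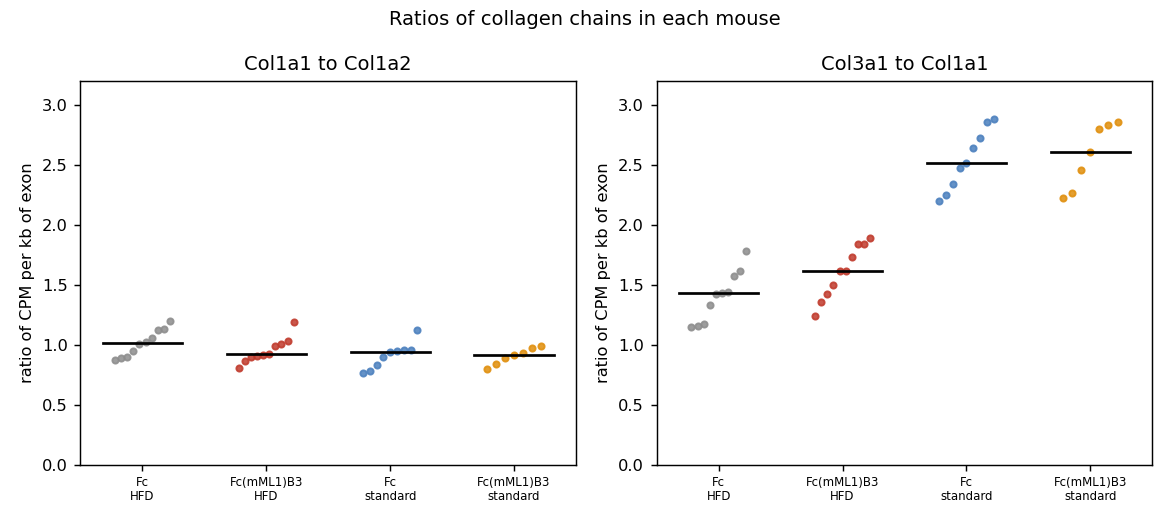
Ratio of Col1a1 to Col1a2 (left) and of Col3a1 to Col1a1 (right), each as CPM per kb of exon on a vertical axis that starts at 0, in each mouse of the 4 groups, with bars at the group medians. The left ratio lies near 1 in all groups, and on the right all mice under the standard diet lie at 2.20 or more and all mice under the HFD at 1.89 or less.

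Over all mice, 8 of the 10 genes had high correlations with each other, though not in every group. After each group's mean was removed, the Pearson correlation of log2 CPM over the 36 mice had a median of 0.87 over the 28 pairs of these 8 genes (0.57 to 0.98). Col5a3 had a median of -0.18 with the 8 (-0.32 to 0.11) and Col14a1 one of 0.14 (0.052 to 0.50). The 8 were grouped after their correlations were seen. Among the 7 Fc(mML1)B3 mice of the standard diet experiment, Col5a1 had r of -0.49 to 0.084 with the other 7 genes, and Col5a2 with Col6a1 had r = -0.027. The other pairs of the 8 were above 0.1 in every group. Col6a1 and Col6a2, the neighbours on chromosome 10, had r = 0.98 and rho = 0.96 (2-sided permutation test within groups with 100000 resamples, p = 1e-05 for both, the smallest p these can give, adjusted over 45 pairs to 1.96e-05 and 2.25e-05). Without the 2 mice farthest from the median, r was 0.96, and within the 4 groups it was 0.92 to 0.99. Col1a1 and Col1a2 had r = 0.96 and rho = 0.94 (permutation p = 1e-05 for both, adjusted 1.96e-05 and 2.25e-05), 0.94 without the 2 farthest mice and 0.87 to 0.98 within groups. Col3a1 and Col5a2, which lie 24624 bases apart on opposite strands of chromosome 1, had r = 0.91 and rho = 0.88 (permutation p = 1e-05 for both, adjusted 1.96e-05 and 2.25e-05), 0.88 without the 2 farthest mice and 0.79 to 0.96 within groups.

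Col1a1 and Col5a3 had r = -0.27 and rho = -0.24 (permutation p = 0.19 and 0.20, adjusted 0.26 and 0.27), with r = -0.19 without the 2 farthest mice and -0.53 to -0.11 within groups. Col1a1 and Col14a1 had r = 0.13 and rho = 0.087 (permutation p = 0.47 and 0.63, adjusted 0.54 and 0.76), with r = 0.17 without the 2 farthest mice and -0.25 to 0.48 within groups. Neither pair passed the test. Col5a1 and Col14a1 did, with r = 0.50 and rho = 0.48 (permutation p = 0.00335 and 0.00543, adjusted 0.0052 and 0.0084), r = 0.44 without the 2 farthest mice and 0.031 to 0.80 within groups. Col5a3 and Col14a1 passed by rank alone, with r = 0.36 and rho = 0.42 (permutation p = 0.0401 and 0.0151, adjusted 0.060 and 0.023), r = 0.27 without the 2 farthest mice and -0.20 to 0.58 within groups. Values in 1 mouse share a library and its scale. The stellate cell genes Pdgfrb (r = 0.82, rho = 0.70) and Des (r = 0.70, rho = 0.65) followed the mean of the 10 genes too. So did the portal fibroblast gene Thy1 (r = 0.66, rho = 0.52), the smooth muscle gene Myh11 (r = 0.46, rho = 0.31) and Acta2 (r = 0.43, rho = 0.35). The activated stellate cell gene Timp1 had r = 0.36 and rho = 0.35. Alb followed it with the opposite sign (r = -0.66, rho = -0.50), whereas Lrat did not (r = 0.042, rho = 0.031). Other genes of the marker lists are not given here.

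**Figure D4:**
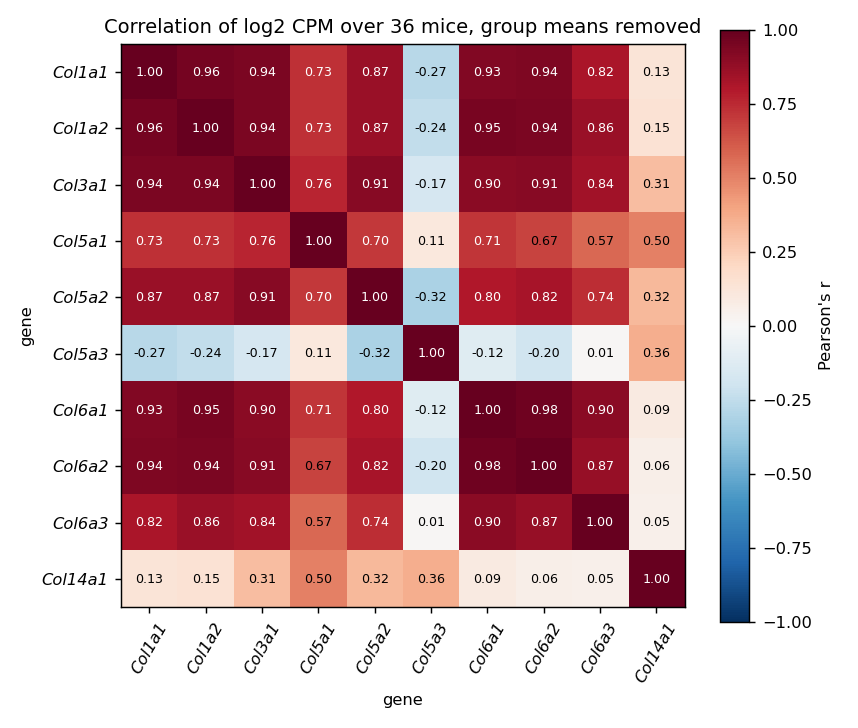
Pearson's r of log2 CPM between each pair of collagen genes over 36 mice with group means removed, in colour from -1 (blue) to 1 (red) and printed in each cell. The rows of Col5a3 and Col14a1 are pale, with r from -0.32 to 0.36 and from 0.052 to 0.50 with the other genes, while the other pairs lie between 0.57 and 0.98.

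The 8 genes outside the group whose pattern was most like the mean of the 10, over 36 mice with group means removed, were Flna (r = 0.92, filamin A, which cross-links actin), Phldb1 (0.91), Ccdc80 (0.90, a secreted matrix protein), Elovl7 (0.88, a fatty acid elongase), Emilin1 (0.88, an elastic fibre protein), Scd2 (0.88, a fatty acid desaturase), Timp3 (0.88, an inhibitor of metalloproteinases) and Bcam (0.88, a laminin receptor). They were chosen for these values, which are a description with no test. For Flna, r was 0.94 and 0.97 in the HFD groups and 0.88 and 0.53 in the standard diet groups.

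Lists of other genes of the collagen pathway were read for the same comparisons, and Dcn, Dpt, Krt19, Postn, Spp1 and Timp1 stand in more than 1 of the pathway and marker lists. Of the 20 genes that hydroxylate, fold and export procollagen, 18 were tested for a response to Fc(mML1)B3 under the HFD, and 0 were lower and 5 higher, against 6.68% and 8.14% of all genes. P3h1 and P4ha1, prolyl hydroxylases, rose by 0.45 (SE 0.086, edgeR adjusted p = 0.001) and 0.63 (SE 0.14, edgeR adjusted p = 0.004), P4ha2, another prolyl hydroxylase, by 0.49 (adjusted p = 0.018), Plod1, a lysyl hydroxylase, by 0.22 (adjusted p = 0.023) and Fkbp14, a folding catalyst, by 0.38 (adjusted p = 0.042) on the log2 scale. The list's median log2 fold change was 0.034. Under the standard diet, where 7.55% of all genes were lower and 8.56% higher, 2 of 18 fell and 0 rose, Serpinh1, the collagen chaperone HSP47, by 0.47 (SE 0.095, edgeR adjusted p = 0.0019) and Creb3l1, a transcription factor, by 0.63 (SE 0.17, edgeR adjusted p = 0.013), and the median was -0.063. In the interaction test P3h1 and P4ha1 were called, with effects lower by 0.38 and 0.67 under the standard diet (edgeR adjusted p = 0.021 and 0.040).

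The next lists stand against 6.68% of all genes called lower and 8.14% higher under the HFD, and 7.55% and 8.56% under the standard diet. Of the 8 genes that cleave procollagen outside the cell or assist in it, 6 were tested within each experiment. Under the HFD, Bmp1, which removes the C-propeptide, rose by 0.62 (SE 0.098, edgeR adjusted p = 0.00014), and under the standard diet Adamts2 and Adamts14, which remove the N-propeptide, fell by 0.38 and 0.53 (edgeR adjusted p = 0.026 and 0.047). The effect on Bmp1 was lower by 0.52 under the standard diet (interaction, edgeR adjusted p = 0.0044). Among 13 proteins that bind or organize fibrils, 12 were tested and none was called by edgeR in either experiment, and 0 and 3 had an unadjusted p below 0.05 under the HFD and the standard diet, against 29.8% and 29.3% of all genes in either direction. The 3 were Prelp (-0.15), Sparc (-0.18) and Podn (0.46). DESeq2 and limma-voom called 0 of them under the HFD. With the standard diet DESeq2 called 2 lower and 1 higher, against 1180 and 1292 of 13570 genes. There limma-voom called 1 lower and 1 higher, against 1140 and 1261. Among the 10 enzymes and inhibitors of collagen breakdown, none was called by edgeR in either experiment. At an unadjusted p below 0.05 there were 0 and 3, against the same 29.8% and 29.3% of all genes. The 3 were Timp2 (-0.31), Mmp14 (-0.19) and Timp3 (0.23). DESeq2 called 0 in both, and limma-voom 1 lower under the HFD and 0 in the other experiment. All 8 tested under the HFD had estimates below 0 (median -0.24). Without Fc(mML1)B3 mouse 5, 10.8% of all genes were called lower under the HFD. In that fit Fmod and Lum of the fibril partners (by 0.68 and 0.61) and Mmp2, a gelatinase, of the breakdown genes (by 0.87) fell (edgeR adjusted p = 0.040, 0.046 and 0.011). So did Fkbp10 of the folding genes and Pcolce of the processing genes, by 0.57 and 0.40 (edgeR adjusted p = 0.036 and 0.027). Of 9 receptors 8 were tested, and 1 was called in each experiment. Itga10 rose under the HFD by 0.62 (edgeR adjusted p = 0.020) and Itga1 fell under the standard diet by 0.17 (edgeR adjusted p = 0.029), both integrin chains that bind collagen. Among the other 17 fibrillar, associated and type VI collagen genes, of which 16 were in the files, 7 and 8 were tested. Col27a1, a fibrillar collagen of cartilage, rose in both experiments, by 0.71 (SE 0.19, edgeR adjusted p = 0.015) and 0.93 (SE 0.14, edgeR adjusted p = 0.00011), and Col16a1 fell under the standard diet by 0.36 (SE 0.079, edgeR adjusted p = 0.0038).

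Markers of the collagen-making cells were read beside the collagens, against 6.68% of all genes lower and 8.14% higher under the HFD and 7.55% and 8.56% under the standard diet. Under the HFD, Ngfr and Pth1r of the 14 stellate cell genes fell with Fc(mML1)B3, by 0.92 and 0.35 (edgeR adjusted p = 0.0057 and 0.036), and Cygb of the 10 genes of activated stellate cells by 0.55 (edgeR adjusted p = 0.039). DESeq2 also called 2 stellate cell genes and 1 activated gene lower there, and limma-voom, with 10.5% of all genes lower, called 4 of 13 stellate cell, 3 of 10 activated and 3 of 8 portal fibroblast genes lower. Without Fc(mML1)B3 mouse 5, 4 stellate cell genes, 4 activated genes, 3 of 8 portal fibroblast genes and 3 of 6 macrophage genes tested were called lower, against 10.8% of all genes, and 0 of these lists higher. In the same fit, 1 cholangiocyte and 1 mesothelial gene were lower and 2 hepatocyte genes higher. Under the standard diet, 4 of the 14 stellate cell genes fell, Ngfr by 0.87, Pdgfrb by 0.51, Des by 0.36 and Pth1r by 0.24 (edgeR adjusted p of 3.17e-05, 0.0073, 0.024 and 0.035), and of the activated genes Lox, the collagen cross-linking enzyme, by 1.11 (edgeR adjusted p = 0.00057), as the 1 such gene called by edgeR and by DESeq2 and 1 fewer than limma-voom called. The elastin gene Eln, of the 10 portal fibroblast genes, fell by 1.14 (edgeR adjusted p = 0.0007). The summed level of the 14 stellate cell genes was 613 to 858 CPM with Fc and 574 to 700 CPM with Fc(mML1)B3 under the standard diet. Dcn alone had means of 369 and 340 CPM there. Of the other cell types, 1 of 3 smooth muscle genes, 1 of 6 cholangiocyte genes and 1 of 6 macrophage genes tested fell under the standard diet and 1 of 6 hepatocyte genes rose in each experiment, while 0 of 6 endothelial genes were called in either by edgeR, DESeq2 or limma-voom (1 and 0 at an unadjusted p below 0.05, against 29.8% and 29.3% of all genes). The defining markers Lrat, Des, Acta2, Thy1, Myh11 and Alb were above 0 in every library. Genes of skeletal muscle and skin summed to 1.95 CPM or less. The part of cell numbers in the collagen values was not tested.

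Between the experiments more genes of these lists were called, as of all genes (24.6% lower and 23.3% higher in Fc mice, 17.9% and 20.7% in Fc(mML1)B3 mice). Of the 12 fibril partners tested, 9 fell under the standard diet in Fc mice and 1 rose, with a median log2 fold change of -0.75, and 8 fell and 1 rose in Fc(mML1)B3 mice, with a median of -0.65. Without Fc(mML1)B3 mouse 5 of the HFD experiment, 5 fell and 0 rose in Fc(mML1)B3 mice, and Fn1, Lum, Dpt and Podn were no longer called. Tnxb (tenascin X) fell by 1.39 and 1.28 in Fc and Fc(mML1)B3 mice, and the leucine-rich proteoglycans Prelp and Bgn by 0.65 and 0.61, and by 0.90 and 0.81 (edgeR adjusted p between 1.34e-08 and 1.72e-05). The gene that rose was Fn1, fibronectin, by 0.42 and 0.26 (edgeR adjusted p = 9.56e-05 and 0.021). Of 9 breakdown genes tested, 5 fell in Fc mice and 3 in Fc(mML1)B3 mice, among them Timp3 by 0.97 and 0.69 and Timp2 by 0.78 and 0.85 (edgeR adjusted p of 2.98e-06, 0.001, 0.0015 and 0.0021). Of 19 folding genes tested, 8 fell and 1 rose in Fc mice, and 13 fell and 1 rose in Fc(mML1)B3 mice (10 and 1 without mouse 5). Mia3, which exports procollagen from the endoplasmic reticulum, rose by 0.83 and 0.91 (edgeR adjusted p = 1.34e-12 and 1.25e-12), while Crtap, a partner of prolyl 3-hydroxylase, fell by 0.77 and 0.78 (edgeR adjusted p = 4.98e-06 and 1.82e-05). Of the processing genes, Pcolce, an enhancer of C-propeptide removal, fell by 0.84 and 0.56 and Adamts2 by 0.72 and 0.79 (edgeR adjusted p between 1.04e-06 and 0.00105).

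The marker lists were read in the same comparison, against the same 24.6% and 17.9% of all genes lower. In Fc mice, 8 of 10 activated stellate cell genes fell and Lox rose, 8 of 14 stellate cell genes fell and 2 rose, 6 of the 8 portal fibroblast genes tested fell, and 3 of 6 macrophage genes fell. Among Fc(mML1)B3 mice, 5 activated genes fell, 5 stellate cell genes fell and 2 rose, 2 portal fibroblast genes fell, and 3 macrophage genes fell, and without mouse 5 of the HFD experiment the lower counts were 4, 4, 0 and 3. Markers of other cell types were called too. In Fc mice, the hepatocyte genes Cps1 and Hnf4a rose by 0.79 and 0.61, the endothelial gene Kdr rose by 0.23, the cholangiocyte gene Epcam fell by 1.03 and the mesothelial gene Wt1 by 0.87 (edgeR adjusted p of 1.43e-07, 1.98e-06, 0.0232, 0.0113 and 0.018). Spp1, a cholangiocyte and activated stellate cell gene, fell by 0.69 and the smooth muscle gene Smtn by 0.49 (edgeR adjusted p = 0.029 and 0.00074). With Fc(mML1)B3, Cps1 rose by 0.70 and Kdr by 0.30, Sox9, a cholangiocyte gene, fell by 0.86, Wt1 by 1.22 and Krt19, of cholangiocytes and mesothelium, by 1.53 (edgeR adjusted p of 4.33e-06, 0.0076, 0.00136, 0.00495 and 0.0037), the last by 0.82 without mouse 5. Smtn fell by 0.57 and the mesothelial gene Lrrn4 rose by 1.27 (edgeR adjusted p = 0.00055 and 0.0077), and Myh11 fell by 1.02 (edgeR adjusted p = 0.032) but had -0.16 without mouse 5 (edgeR adjusted p = 0.53). Without mouse 5, 3 of 6 endothelial genes were lower, in place of 0. Acta2, the smooth muscle actin of myofibroblasts, fell by 1.37 (SE 0.32, edgeR adjusted p = 0.00065) and in Fc(mML1)B3 mice by 2.11 (SE 0.36, edgeR adjusted p = 1.38e-05), or by 1.52 without mouse 5 (SE 0.23, edgeR adjusted p = 2.26e-06), and Cygb by 1.17 and 0.75 (edgeR adjusted p = 9e-07 and 0.0016). Hgf, the ligand of Met and a stellate cell product, rose by 0.85 and 0.78 (edgeR adjusted p = 0.00012 and 0.00095). The summed level of the 14 stellate cell genes was 815 to 1248 CPM in Fc mice under the HFD and 613 to 858 CPM under the standard diet. That of the 10 activated genes was 332 to 1095 and 316 to 664 CPM, and that of the 6 endothelial genes 235 to 259 and 235 to 282 CPM. Single genes held much of the first 2 sums, Dcn (means of 558 and 369 CPM) of the stellate cell sum and Spp1 (481 and 297 CPM) of the activated sum. Lrat was at a median of 28.9 CPM in Fc mice under the HFD and 28.5 CPM under the standard diet. The part of these cell types in the collagen differences was not tested.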

How the data were processed

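Livers of 36 mice were measured by RNA-seq, and each library is a separate mouse. The authors deposited unnormalized read counts per gene for each library. They had trimmed reads with fastp, removed ribosomal reads with Bowtie2 2.4.5, aligned the rest to mm10 with STAR 2.7.10a and counted with featureCounts of Subread 2.0.3, with each end counted as a read, strand ignored and multi-mapping reads not counted, so that reads shared by near-identical genes are missing. Total counts were 14949035 to 28466853 per library, and p-values measure the spread between mice.

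Groups were taken from the sample titles. The members and the gene lists were chosen with earlier results of these data known. Genes were filtered with edgeR's filterByExpr, scaled by TMM and tested with edgeR 4.0.16's quasi-likelihood test (R 4.3.3) with Benjamini-Hochberg adjustment over all genes. The effect of Fc(mML1)B3 was fitted within each experiment, and the diet comparisons and the interaction over all 36 libraries. CPM is given after TMM scaling, per kb of counted exon length where genes are compared. Alternatives were DESeq2 1.42.0, limma-voom (limma 3.58.1), upper-quartile scaling, no filter, other sets of libraries, leaving out each library, a replicate block and thresholds that the study gives. Ratios were tested by permutation (scipy 1.17.1). All 10 members were named, with up to 4 called genes of each list by smallest p and the 8 genes most like the members. Any other gene named was chosen after its values were seen. Tested on simulated counts with 200 changed genes, the tests recovered 96% (Fc(mML1)B3 under the HFD), 98% (standard diet), 97% and 99% (diets in Fc and Fc(mML1)B3 mice) and 85% (interaction) of 2-fold changes, and smaller changes were not simulated. No 2 libraries of a group agreed within sampling noise.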

Additional observations from a re-analysis of the deposited data

Results flagged for a closer look

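In Fc(mML1)B3 mouse 5 under the HFD, 4 of the collagen genes lay far above the other 9 mice of the group. Col1a1 was at 187.67 CPM with the next mouse at 113 CPM, Col1a2 at 203.726 CPM with the next at 125 CPM, Col6a1 at 88.1681 CPM with the next at 53.8 CPM, and Col6a2 at 62.6122 CPM with the next at 35.7 CPM. The same library held the highest summed level of smooth muscle, mesothelial, portal fibroblast, stellate cell, activated stellate cell, cholangiocyte and macrophage genes of its group. Some of these lists share Krt19 or Spp1. The part of the listed genes in these values was not tested. In Fc mouse 6 under the standard diet, Col1a2 was at 92.5827 CPM with the next of its 9 mice at 61.5 CPM. In Fc(mML1)B3 mouse 7 under the standard diet, Col14a1 was at 116.391 CPM with the next of its 7 mice at 91.6 CPM. Of 48 groups of values checked with Dixon's test at 95%, 6 held such a mouse, and chance gives about 1 in 20 for independent groups. These were not independent, since 4 of the 6 were the same mouse in genes that correlated with each other.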

How the results depend on the processing

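Over 310 settings of single collagen genes, other than leaving out each library in turn, 271 kept direction and side of the threshold, 12 lost a call, 22 gained one and 5 changed sign. The cause of the changes was not tested. For Fc(mML1)B3 under the HFD, limma-voom called 3 collagen genes lower, with 10.5% of all genes lower and 12.4% higher, and the fit of all 36 libraries called 3, with 11.3% of all genes lower. Mice 1 to 4 alone gave 1 collagen gene (2.11% of all genes lower, 2.99% higher), no filter 4.01% and 5.07%, and the study's thresholds 0.677% and 0.662%. Leaving out each library gave 0 to 3 collagen genes and 4.79% to 10.8% of all genes lower. Col14a1 turned to -0.012 with upper-quartile scaling and to -0.014 with mice 1 to 4, and ranged from -0.0081 to 0.060 without 1 library each.

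Under the standard diet, DESeq2 called 6 collagen genes lower, the fit of all 36 libraries 0 (2.31% of all genes lower, 3.25% higher), 1 run of header numbers 1 (3.09% and 3.77%) and the study's thresholds 0 (1.31% and 1.05%), and no filter gave 4.58% of all genes lower. Leaving out each library gave 0 to 5 collagen genes. The adjusted p of Col5a2, Col5a3 and Col6a2 was 0.307, 0.334 and 0.326 in the 36-library fit. Between experiments in Fc(mML1)B3 mice, upper-quartile scaling (26.9% of all genes lower) and the fit of only the 2 groups each called 8 collagen genes lower. For the interaction, DESeq2, limma-voom and the fit without Fc(mML1)B3 mouse 5 (chosen after seeing the data) each called 1 collagen gene, limma-voom called 7.17% of all genes lower and 7.20% higher, and no filter gave 2.65% higher. The interaction turned to -0.00357 for Col5a1 with DESeq2, and for Col3a1 to 0.031 with limma-voom and 0.066 without mouse 5.

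Without 1 library each, the difference in log2 ratio of Col3a1 to Col1a1 ranged from 0.16 to 0.23 in the HFD and from -0.0065 to 0.054 in the standard diet experiment, and that of Col1a1 to Col1a2 from -0.13 to -0.063 and from -0.033 to 0.036.

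Mice with the same replicate number share only a number. Their deviations correlated by -0.62 to 0.26 in the HFD and by -0.14 to 0.014 in the standard diet experiment, and none correlated best with its own number. The replicate block gave 4.23% of all genes lower under the HFD and, with the standard diet, 0 collagen genes, 4.36% of all genes lower and 5.30% higher.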
